A study of Homo sapiens with 7 samples.

Results

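The genes of the G2 phase and mitosis were followed through 7 cultures of HT1080 cells, an established human fibrosarcoma line. They were the 42 genes on a list of mitotic cyclins and kinases and of checkpoint, kinetochore, spindle and cytokinesis genes, of 19775 genes on the array. The genes were taken by name and no value entered the rule, but the list was chosen with earlier results of these data known. All 42 were found, on 83 probe sets assigned to that gene alone, and all 42 passed the filter on dim genes that 9888 genes passed. For 2 h, 1 culture was kept with 6.25 ng/ml epicatechin, another with 6.25 ng/ml of taxifolin, a further one with 11.25 ng/ml of catechin and one with 2195 ng/ml of resveratrol. A separate culture received 5% control serum for 2 h, another 5% pycnogenol-positive serum for 2 h, and the last was untreated. Pycnogenol is an extract of pine bark, and the labels describe the serum as that of patients who were treated with it. How long the untreated culture was kept, whether its medium was changed and whether solvent was added are not stated, nor whether the fresh medium of the others held serum besides that tested. Cells were grown in medium with fetal bovine serum before the experiment. Each treatment was measured on 1 array, so differences carry neither replicate error nor p-value and describe single cultures.

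Entry into mitosis is driven by CDK1 bound to cyclin A or cyclin B, activated by CDC25 phosphatases and helped by the Polo-like and Aurora kinases. The spindle assembly checkpoint then holds back the ubiquitin ligase that CDC20 activates until every kinetochore is attached, after which securin and cyclin B are destroyed. Transcripts of these genes build up from late S phase to mitosis in cycling cells, and their joint level is widely used as a measure of proliferation. Many of their promoters carry a cell cycle genes homology region, read by the DREAM and MYB-MuvB complexes with FOXM1, near CCAAT boxes bound by NF-Y. In bulk RNA, fewer cells in G2 or mitosis and less RNA per cell cannot be told apart.

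The promoters of 5 members are shown because these elements, which the choice of genes did not use, were more frequent among the members than among all genes. Each line gives the 120 bases before the RefSeq start on build GRCh38.p14, 5′ to 3′ on the gene's strand, with TTTGAA and CCAAT, or their reverse complements, in capitals.
CCNB1: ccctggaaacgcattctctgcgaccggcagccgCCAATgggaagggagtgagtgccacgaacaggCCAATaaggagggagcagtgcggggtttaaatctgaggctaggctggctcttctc
CCNB2: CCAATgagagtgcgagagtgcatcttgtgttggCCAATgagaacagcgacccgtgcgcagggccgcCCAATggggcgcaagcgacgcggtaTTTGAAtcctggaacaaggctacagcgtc
PLK1: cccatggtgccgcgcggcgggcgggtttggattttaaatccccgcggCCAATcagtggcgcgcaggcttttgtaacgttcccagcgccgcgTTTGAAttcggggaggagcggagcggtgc
CDC20: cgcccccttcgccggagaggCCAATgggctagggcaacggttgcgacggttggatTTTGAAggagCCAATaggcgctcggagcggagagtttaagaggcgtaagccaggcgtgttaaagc
TOP2A: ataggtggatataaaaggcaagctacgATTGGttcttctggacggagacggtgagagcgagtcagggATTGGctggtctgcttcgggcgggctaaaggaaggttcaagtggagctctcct

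These stretches lie at chr5:69167030-69167149 on the + strand (CCNB1), chr15:59105026-59105145 on the + strand (CCNB2), chr16:23678769-23678888 on the + strand (PLK1), chr1:43358861-43358980 on the + strand (CDC20) and chr17:40417897-40418016 on the - strand (TOP2A). CCNB1 holds CCAAT boxes but no TTTGAA in the window searched. In CCNB2 and in PLK1 the first base of TTTGAA stood 29 bases before the start, and in CDC20 65 bases before it. The TOP2A stretch holds CCAAT boxes on the opposite strand, at 93 and 53 bases before the start, and its TTTGAA matches lay farther upstream, at 194 and 151 bases. RefSeq windows from 250 bases before to 50 bases after the start were at hand for 35 of the 42 members. On either strand, TTTGAA occurred in 25 of the 35 members (71.4%) and in 18.2% of 27305 genes with such a window. CCAAT occurred in 29 members (82.9%) and in 39.7% of all genes, and TTTGAA together with CCAAT in 21 members (60.0%) and in 8.37% of all genes. The variant TTCGAA occurred in 3 members, BUB1, NDC80 and CDC25B (8.57%), and in 1.82% of all genes. CCAAT can share 1 end base with either of the other motifs, and a match describes letters, not a bound site.

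The values are linear MAS5 signals of the authors. Leaving out the lowest and highest 2%, they averaged 1000 on all 7 arrays. Array medians lay between 114 (control serum) and 136 (resveratrol). The SD of log2 differences over all genes compared ran from 0.235 to 0.282 in the 10 pairs of arrays without test serum and from 0.323 to 0.387 in the 10 pairs with 1 serum array. Of the mesenchymal markers, 7 of 9 found were above the filter, with VIM, the filament protein vimentin, between 46701 and 50229 on all arrays. The markers TGFBI and FN1, both of the extracellular matrix, were higher with serum: TGFBI read 4391 in the untreated culture, 9321 with control serum and 10109 with pycnogenol-positive serum, past 2-fold in both cases, and FN1 read 7571, 10325 and 10757. LOX went the other way, at 6859 in the untreated culture, 5524 to 7126 with the compounds and 5049 and 5400 with the sera. Of the 7 markers above the filter, both serum values lay above the rest in 2, below in 1, and overlapped in 4. The summed signal of the 9 mesenchymal markers ran from 132749 to 139834 without test serum and was 142127 and 146936 with the sera. The epithelial and endothelial markers were below it in 10 of 10 cases, and their summed signal ran from 624 to 866. Of 8 blood cell markers found, HBB, a globin gene, was above it, at 227 in the untreated culture, from 299 to 413 with the compounds, 382 with control serum and 522 with pycnogenol-positive serum, while PTPRC, the common leukocyte marker, lay at 79.7 or less. The summed signal of the blood markers ran from 702 in the untreated culture to 848 and 923 with control and pycnogenol-positive serum, and from 721 to 789 with the compounds. The part of either list in the members' differences was not tested.

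No member differed by 2-fold or more in any of the 8 comparisons of arrays, whereas 0.314% to 2.24% of the genes compared did. Over the 7 arrays the highest signal of a member was a median of 1.24 times its lowest, against 1.38 times over all genes compared and 1.29 times over the 4944 brightest genes, which held 39 of the members. In 37 of 42 members (88.1%) this range stayed under 1.5-fold, as it did for 84.1% of the brightest genes and 67.2% of all genes compared, so the members' share was near that of the brightest genes. Of the 21 pairs that the 7 arrays form, 1 had a member past 2-fold: PLK1 differed by 1.03 (log2) between resveratrol and pycnogenol-positive serum. The 5 members with a range of 1.5-fold or more were PLK1, AURKA, PLK4, AURKB and CDC25C, of which 4 are kinases and the fifth a phosphatase. PLK1, CDC25C, PLK4 and AURKB were dim for members, with mean signals of 675, 871, 2350 and 3057 against a members' median of 7725. AURKA was bright, at 11287.

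**Figure D1:**
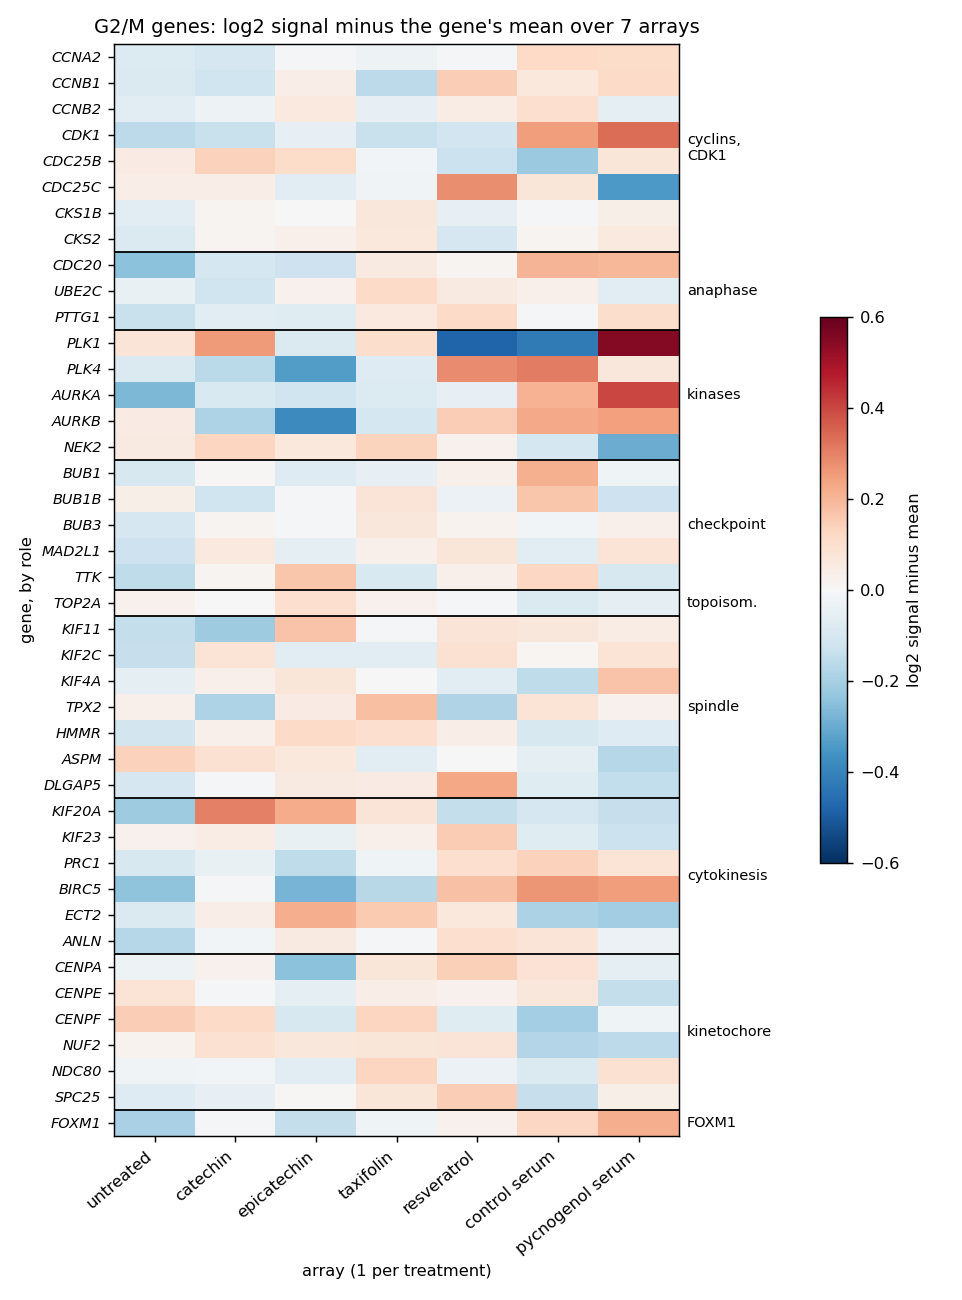
Log2 signal of the 42 G2/M genes (rows, grouped by role) in each of the 7 arrays (columns), minus the gene's own mean over the 7 arrays; red is above and blue below that mean. Most cells are pale, since the median range of a gene is 0.31 on the log2 scale, and PLK1, with a range of 1.03, shows the strongest colours.

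Among the cyclins and CDK1, CDK1 differed most with serum. CDK1, the kinase that starts mitosis, read 14205 in the untreated culture, 14428 with catechin, 15309 with epicatechin, 14412 with taxifolin, 14622 with resveratrol, 18843 with control serum and 19964 with pycnogenol-positive serum. The 2 serum values lay above the other 5, which spanned 14205 to 15309, and the geometric mean over the serum arrays was 1.33 times that over the others, a measure used for all such ratios here. CCNA2, cyclin A, read 10227, 10066, 10726, 10590, 10773, 11725 and 11680 in the same order of cultures. Both serum values were again the highest, by a smaller margin, at 1.12 times the mean of the others. CCNB1, cyclin B, read 16864, 16440, 18355, 16015, 19784, 18704 and 19378, and here the resveratrol culture was the highest, so the groups overlapped. CCNB2, a second B-type cyclin, ranged from 8458 to 9484 and also overlapped. CKS1B and CKS2, small subunits of cyclin-dependent kinase complexes, had ranges of 1.09-fold and 1.12-fold, with 16341 and 16882 for CKS1B and 31842 and 32806 for CKS2 with control and pycnogenol-positive serum. The CDC25 phosphatases, which activate CDK1, went separate ways between the serum cultures: CDC25B read 3266 with control serum and 4009 with pycnogenol-positive serum, and CDC25C 915 and 687.

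The 5 kinases grouped as a role had the widest median range of the roles, 0.64 (log2), against 0.25 to 0.36 in the other roles with more than 1 gene. The kinases CDK1, BUB1 and TTK, placed in other roles, had ranges of 0.49, 0.31 and 0.32. PLK1, which promotes mitotic entry and spindle formation, read 712 in the untreated culture, 806 with catechin, 634 with epicatechin, 725 with taxifolin, 484 with resveratrol, 503 with control serum and 988 with pycnogenol-positive serum. The lowest values were those of resveratrol and control serum and the highest that of pycnogenol-positive serum, so the serum cultures stood at opposite ends. PLK1 was measured on 1 probe set, with a mean signal of 675 against the filter's 269. AURKA, a centrosome kinase, read 9369, 10586, 10392, 10671, 10921, 13046 and 14892 in the order from untreated to pycnogenol-positive serum. Both serum values exceeded the rest, and the serum mean was 1.34 times the other mean. AURKB, the kinase of the chromosomal passenger complex, read 3159, 2687, 2347, 2840, 3390, 3581 and 3630, and the 3 compound cultures other than resveratrol were the lowest. PLK4, which starts centriole duplication, was lowest with epicatechin at 1865 and highest with control serum at 2910, and it overlapped. NEK2, a kinase of centrosome separation, read 6277, 6626, 6317, 6635, 6168, 5635 and 4928, with both serum cultures below the others at 0.823 times their mean.

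The checkpoint and anaphase genes included 1 gene that was higher with serum. CDC20, the activator of the anaphase-promoting complex, read 9925, 10923, 10806, 12223, 11896, 13528 and 13510. The untreated culture was the lowest, both serum cultures were the highest, and the serum mean was 1.22 times the other mean. UBE2C, the ubiquitin-conjugating enzyme of that complex, ranged from 11686 to 13763, and PTTG1, securin, from 19932 to 23657. PTTG1 was read from a probe set type that can bind related sequences, so its close copies cannot be told apart from it. The 5 checkpoint genes BUB1, BUB1B, BUB3, MAD2L1 and TTK had ranges of 0.17 to 0.32 (log2), and their serum values overlapped those of the other cultures in all 5. BUB1, a checkpoint kinase, was highest with control serum at 6163 and read 4971 to 5421 in the others. MAD2L1, which inhibits CDC20, read between 24352 and 28126, with the lowest value in the untreated culture.

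Of the 6 centromere and kinetochore genes, NUF2 was the one whose serum values lay apart. NUF2, a subunit of the NDC80 complex that grips microtubules, read 7787, 8188, 8044, 8079, 8088, 6804 and 6891. Its 5 values without test serum lay close together and both serum values below them, at 0.852 times their mean. Its partner NDC80 read 6448 with control serum and 7296 with pycnogenol-positive serum, and 6561 to 7478 in the others, so it did not share that order. CENPF, a kinetochore protein of G2 and mitosis, was lowest with control serum at 6368 and read 8143 in the untreated culture, but a second CENPF probe set read 3216 with control serum and 2932 in the untreated culture. SPC25, of the same complex as NUF2, and CENPE, a kinetochore motor, had ranges of 0.28 and 0.23 (log2). CENPA, the histone variant of centromeres, ranged from 1121 with epicatechin to 1464 with resveratrol.

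Genes of cytokinesis differed from one another in their order of cultures. ECT2, which activates RhoA for the cleavage furrow, read 18069, 19731, 22302, 21381, 20030, 16821 and 16608, and all 4 compound cultures were above and both serum cultures below the untreated one. A second ECT2 probe set above the filter read 1884, 1748, 1256, 1724, 1509, 1606 and 704, with all 4 compound cultures below the untreated one. KIF23, a motor of the centralspindlin complex that recruits ECT2, read 3642, 3692, 3478, 3659, 3977, 3403 and 3272, with both serum values lowest by a narrow margin. TOP2A, which untangles sister chromatids, read 14550, 14320, 15369, 14547, 14206, 13465 and 13796, again with both serum values lowest, at 0.934 times the mean of the others. BIRC5, survivin, which belongs to the passenger complex with AURKB, read 6583, 7731, 6407, 6925, 8789, 9350 and 9245. Its serum values were the highest and the resveratrol culture came next. KIF20A, a kinesin that brings passenger proteins to the midzone, read 3585 in the untreated culture, 5129 with catechin, 4858 with epicatechin, 4384 with taxifolin, 3764 with resveratrol, and 3884 and 3779 with control and pycnogenol-positive serum. The 3 flavonoid cultures were the highest for KIF20A. The 7 spindle motor and assembly genes KIF11, KIF2C, KIF4A, TPX2, HMMR, ASPM and DLGAP5 had ranges of 0.22 to 0.38 (log2), and PRC1 and ANLN, 2 further cytokinesis genes, of 0.29 and 0.27. FOXM1, a transcription factor of G2/M genes, read 3025, 3450, 3137, 3404, 3524, 3775 and 4029, and both serum cultures were above the rest at 1.18 times their mean.

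Set against the other 5 cultures, both serum cultures lay on one side for 12 of 42 members (28.6%), as they did for 29.6% of the genes compared and 32.3% of the brightest. The members' share was therefore near that of genes in general. Both serum values were above the rest in 7 members (background 13.5%), namely CDK1, AURKA, AURKB, BIRC5, CDC20, FOXM1 and CCNA2, with differences of means of 0.16 to 0.43 (log2). They were below the rest in 5 members (background 16.1%), namely NEK2, ECT2, NUF2, KIF23 and TOP2A, with differences of -0.28 to -0.099. With each array centred on its median, those 5 no longer lay apart, and TOP2A changed sign to 0.022, whereas all 7 higher members stayed above. Under that centring 15 of 42 members lay above (35.7%) and 0 below, beside 26.4% and 6.12% of the genes compared, so all genes shifted in the same direction. That centring moved the median difference of all genes compared from 0.0076 to 0.18 for control serum against untreated, since the serum arrays had the lowest medians. The members' median difference of serum from the other means was 0.022 with 27 of 42 above 0 (background 48.1%, or 53.5% of the brightest genes). That of all genes compared was -0.010 and that of the brightest 0.015. Without the resveratrol culture 10 members lay above (23.8%, background 16.6%), with CCNB1, PLK4 and PRC1 added, and without the untreated culture 7 lay below (16.7%, background 19.2%), with HMMR and DLGAP5 added.

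**Figure D2:**
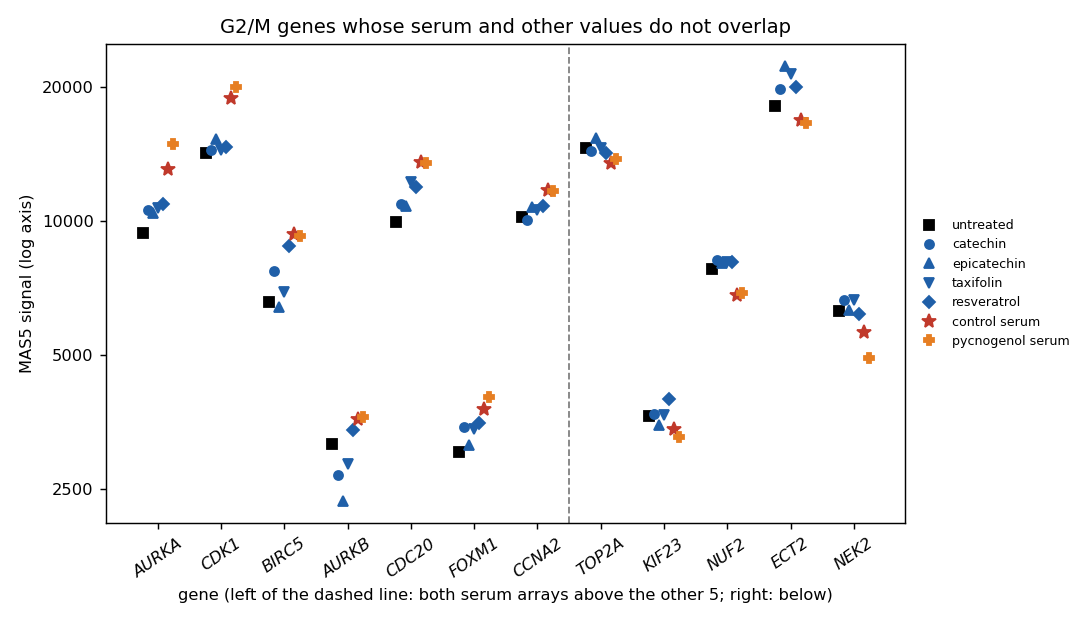
MAS5 signal on a log axis of the 12 G2/M genes whose 2 serum values (star and plus) both lie above or both below the 5 other arrays. CDK1 and AURKA show the widest separation above, at 1.33 and 1.34 times the mean of the others, and TOP2A a narrow one below.

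Further probe sets of the same genes bore on these orders. CDK1 had 3 probe sets above the filter and AURKA 2, and on each of them both serum values were the highest, and for TOP2A both were the lowest on 2 of 2. The size differed: the other CDK1 probe sets gave 0.13 and 0.19 (log2) against 0.41 on the brightest, and averaged over its probe sets CDK1 differed by 0.15 and the groups overlapped. AURKB, TOP2A, KIF23 and ECT2 also overlapped with that mean, and AURKA, BIRC5 and KIF23 no longer lay apart in the reported direction without _x_at and _s_at probe sets. CDC20, FOXM1 and ECT2 could not be read in that setting, since no probe set of theirs above the filter was left. FOXM1 rested on 1 _x_at probe set, a type that can bind related sequences. CCNA2, NEK2 and ECT2 each had 2 probe sets above the filter, which shared the sign of the difference of means, but serum and other values lay apart on 1 of them. For BIRC5, 3 of 4 shared the sign and 1 lay apart. The remaining 5 of the 12 members had 1 probe set above the filter. Over the 17 members with a second probe set above the filter, its serum difference had the sign of the first in 15. Between single arrays it had the same sign in 8 of 17 for epicatechin against untreated and in 13 of 17 for control serum against untreated, and the median gap between both probe sets was 0.16 (log2) for the latter. Probe sets below the filter gave most of the large differences, 4 of 5 at 2-fold for the serum pair. The one above it belonged to ECT2, where a dimmer probe set read 1606 with control serum and 704 with pycnogenol-positive serum, a difference of -1.19, while the brightest one gave -0.018. A dimmer ASPM probe set read 3535 in the untreated culture and 1743 with pycnogenol-positive serum, a difference of -1.02 where the brightest gave -0.31. ASPM encodes a spindle pole protein.

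**Figure D3:**
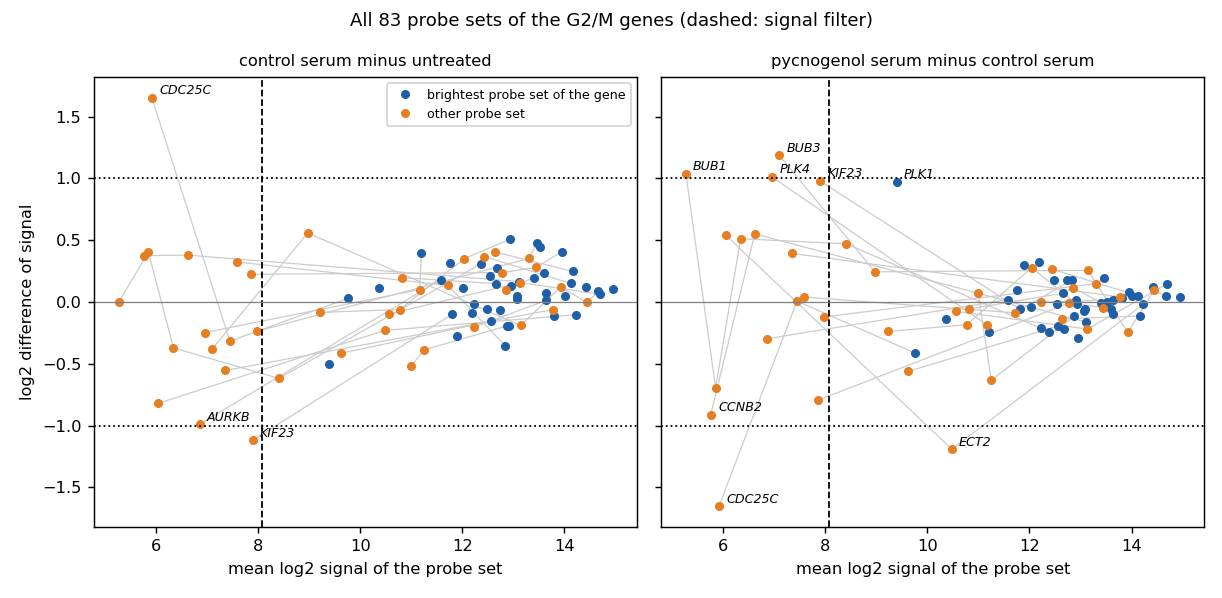
Log2 difference of signal against mean log2 signal for all 83 probe sets of the G2/M genes, for control serum minus untreated (left) and pycnogenol-positive serum minus control serum (right); thin lines join probe sets of one gene. Points left of the dashed signal filter scatter past the dotted 2-fold lines, while to its right the brightest probe sets stay within them and PLK1 comes nearest, at 0.97.

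Control serum against the untreated culture gave 29 members above 0 (69.0%, background 51.3%, or 56.9% of the brightest genes). Their median log2 difference was 0.094, against 0.0076 for all genes compared and 0.033 for the brightest. The untreated array, shared with the compound comparisons, gave the lowest signal of 15 members (35.7%) and of 16.9% of the genes compared. With centring on array medians 37 lay above 0 (88.1%), as did 73.3% of the genes compared. None of the 42 reached 2-fold (background 1.20%). The largest differences were those of BIRC5 at 0.51, PLK1 at -0.50, AURKA at 0.48, CDC20 at 0.45 and CDK1 at 0.41, and 38 of the 42 lay between the 5th and 95th percentiles of the brightest genes, -0.43 and 0.43. By role and on the brightest probe sets, all 5 checkpoint genes lay above 0 as deposited and with quantile normalization or median centring. Of the kinetochore genes, 5 of 6 lay below it as deposited and with quantile normalization and 2 of 6 with median centring. Of the genes compared, 51.3%, 53.1% and 73.3% lay above 0 in these settings, in that order. Other probe sets above the filter gave -0.62 for BUB1, -0.19, -0.0038, 0.12 and 0.56 for BUB3, -0.098 and 0.16 for MAD2L1 and 0.13 for CENPF.

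Between pycnogenol-positive and control serum the members showed no common direction, with 20 above and 22 below 0 (47.6% above, background 51.6%) and a median of -0.0037. With median centring 12 of 42 lay above 0 (28.6%), as did 41.1% of the genes compared. PLK1 differed by 0.97, a size that 0.627% of the genes compared reached, and was the 1 member at 1.5-fold or more (background 4.24%, or 1.4% of the brightest genes). With a mean signal of 675 PLK1 was the dimmest member and not among the brightest genes. The SD of this pair was 0.28 over all genes compared and 0.21 over the brightest, and genes of PLK1's own signal were not set apart. No member reached 2-fold (background 0.536%). The next were CDC25C at -0.41, KIF4A, a chromosome-bound kinesin, at 0.32, CDC25B at 0.30 and BUB1B, a checkpoint protein, at -0.29. On their brightest probe sets all 6 cytokinesis genes lay between -0.11 and -0.016. Other probe sets above the filter gave 0.28, -0.18 and -0.24 for BIRC5, -1.19 for ECT2 and -0.14 for ANLN. Against the untreated culture, whose array the compound comparisons share, pycnogenol-positive serum gave AURKA at 0.67, CDK1 and BIRC5 both at 0.49, PLK1 at 0.47 and CDC20 at 0.44. Of the members, 28 lay above 0 (66.7%, background 52.5%, or 57.4% of the brightest genes). None reached 2-fold (background 2.24%), and the median was 0.10. With median centring 33 lay above 0 (78.6%), beside 65.9% of the genes compared. This comparison includes the difference between control serum and the untreated culture.

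With the compounds, the SD of the members' differences from the untreated culture ran from 0.11 to 0.18 (log2), against 0.22 with control serum. For catechin 29 members lay above 0 (69.0%, background 57.6%), none of the 42 at 2-fold (background 0.455%), and the median was 0.070. KIF20A differed by 0.52, AURKB by -0.23, BIRC5 by 0.23, KIF2C, a microtubule-depolymerising kinesin, by 0.22, and TPX2, an activator of AURKA, by -0.22. For epicatechin 29 lay above 0 (background 57.3%), none reached 2-fold (background 0.314%) and the median was 0.068; the first 5 by size were KIF20A at 0.44, AURKB at -0.43, the kinase TTK at 0.32, the spindle motor KIF11 at 0.31 and ECT2 at 0.30. For taxifolin 34 lay above 0 (81.0%, background 57.2%), none reached 2-fold (background 0.465%) and the median was 0.073, and CDC20 at 0.30, KIF20A at 0.29, ECT2 at 0.24, the spindle protein HMMR at 0.21 and ASPM at -0.20 differed most. For resveratrol 30 lay above 0 (71.4%, background 54.8%), none of the 42 at 2-fold (background 0.728%), and the median was 0.12. PLK1 at -0.56, BIRC5 at 0.42, PLK4 at 0.37, DLGAP5, a spindle protein, at 0.33 and ANLN, a cleavage furrow protein, at 0.27 led there. Of the brightest genes, 59.0%, 61.4%, 61.2% and 56.4% lay above 0 for catechin, epicatechin, taxifolin and resveratrol. All 4 comparisons share the untreated array, as do those of either serum with the untreated culture. That array gave the lowest of the 7 signals for 15 members (35.7%) and for 16.9% of the genes compared. After quantile normalization, a check added after seeing the data, it did so for 11 members (26.2%) and 18.0%. With median centring the members above 0 numbered 35 for catechin, 35 for epicatechin, 37 for taxifolin and 25 for resveratrol, beside 70.0%, 72.0%, 68.8% and 37.8% of the genes compared. With the mean of the other 3 compound cultures as reference instead, the members' medians were -0.019 for catechin, -0.036 for epicatechin, 0.0069 for taxifolin and 0.045 for resveratrol. Those of all genes compared were 0.011, 0.0031, 0.0053 and -0.0078 in the same order. Members above 0 then numbered 16, 18, 23 and 24 (38.1%, 42.9%, 54.8% and 57.1%), beside 53.2%, 50.8%, 51.4% and 48.3% of the genes compared.

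**Figure D4:**
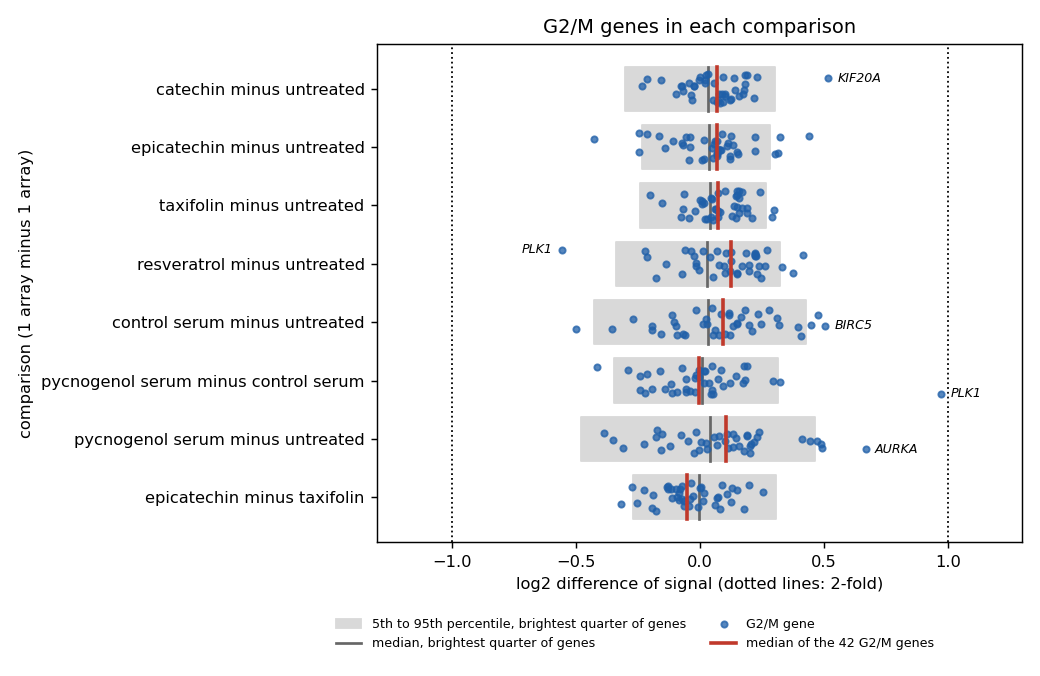
Log2 difference of signal (x axis) of each of the 42 G2/M genes (points) in the 8 comparisons of 1 array with another (y axis); red bars are the members' medians, grey bands the 5th to 95th percentiles of the 4944 brightest genes and dark grey bars their medians. All points lie inside the dotted 2-fold lines, and genes at 0.5 or more in size are named, with PLK1 at 0.97 the farthest out.

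At 1.5-fold, no member differed from untreated with catechin (background 3.55%, or 0.87% of the brightest genes), epicatechin (2.82% and 0.445%), taxifolin (3.3% and 0.647%), resveratrol (4.46% and 1.33%) or control serum (7.83% and 4.27%). AURKA did with pycnogenol-positive serum (10% and 5.2%).

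Epicatechin and taxifolin were the only compounds given at the same mass concentration, and this was the only pair set against each other. Both are flavonoids, and taxifolin carries a carbonyl group in the central ring that epicatechin lacks. Epicatechin minus taxifolin gave a median of -0.054 over the members and -0.00070 over all genes compared, with 15 members above and 27 below 0 (35.7% above, background 49.8%) none at 2-fold (background 0.324%) and none at 1.5-fold (background 3.47%, or 1.19% of the brightest genes). CENPA read 1121 and 1396, a difference of -0.32, AURKB differed by -0.27, TTK by 0.26, PLK4 by -0.25 and CENPF by -0.23. With 1 culture each, no interval of these differences can be given. Catechin, a stereoisomer of epicatechin, was given at a higher concentration, and its values are set beside those of epicatechin without a comparison.

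Of 100 further G2/M genes taken by name, 95 were compared. With control serum against untreated, 63 of the 95 lay above 0 (66.3%, background 51.3%), the median was 0.093 and none reached 2-fold (background 1.20%). The largest differences were those of CDC25A, a phosphatase of both G1 and G2, at 0.62, the spindle motor KIFC1 at 0.62 and the kinetochore protein MIS12 at 0.59. For pycnogenol-positive against control serum, 57 lay above 0 (60.0%, background 51.6%), the median was 0.043 and none reached 2-fold (background 0.536%). The first 3 by size were the histone H3 kinase HASPIN at 0.65, the kinetochore gene PMF1 at 0.65 and FBXO5, an inhibitor of the anaphase-promoting complex, at 0.46. At 2-fold stood ANAPC2, a subunit of that complex, at -1.07 with taxifolin, from 416 to 198, which is below the filter's 269, and CDC25A at 1.08 with pycnogenol-positive serum against untreated. Both serum values lay above all others in 19 of the 95 (20.0%) and below in 9 (9.47%), beside 13.5% and 16.1% of all genes compared.

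Of 20 regulators of G2/M promoters, 19 were compared, and none differed by 2-fold in the 8 comparisons (background 0.314% to 2.24%). With control serum against untreated they had a median of 0.046, with E2F5, an E2F factor of repressor complexes, at -0.57, MYBL2, the MYB member of MYB-MuvB, at -0.53 from 1679 to 1161, and the MuvB subunit LIN37 at -0.50. In the serum pair MYBL2 differed by 0.39, the MuvB subunit LIN9 by -0.39 and RBL1, a pocket protein of DREAM, by -0.31. Of the genes of G1/S and DNA replication, 49 were compared. For control serum against untreated their median was 0.20, with 40 above 0 (81.6%, background 51.3%). For the serum pair it was 0.030, with 29 above 0 (59.2%, background 51.6%). FEN1, a flap endonuclease of replication, was at 1.11, the transcription factor E2F1 at 0.76 and the cyclin CCND3 at 0.75 with control serum against untreated. In the serum pair FEN1 was at -0.77, the origin licensing factor CDT1 at 0.61 and the helicase subunit MCM3 at 0.57. Both serum values lay above all others in 18 of these 49 genes (36.7%), against 7 of the 42 G2/M genes (16.7%), and below in 3 and 5. Of all genes compared 13.5% lay above and 16.1% below, so the G2/M genes were near that background. The difference between these lists was not tested. CDC25A is among the further G2/M genes and among those of G1/S.

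The 12 members whose serum values lay apart included 9 with a promoter window. Of the 4 such genes on the higher side, 2 held TTTGAA, CDK1 and CDC20, and CCNA2 and AURKB did not. Of the 5 on the lower side, 4 held it, TOP2A, KIF23, NUF2 and ECT2, and NEK2 did not. Over all 35 members with a window the share was 71.4%, and no difference between the sides can be read from counts this small.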

How the data were processed

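Total RNA of 7 HT1080 cultures was labelled and hybridised to Affymetrix arrays of 54675 probe sets. The deposited values are signal intensities on a linear scale, which the authors made with MAS5 per the submitters' processing notes; its version and detection calls are not given in the sources used here. MAS5 scales whole arrays to 1 mean, so a change shared by most genes would not show. Signals under the 25th percentile, 34.9, were raised to it and put on the log2 scale. Probe sets were assigned with the platform's annotation, and symbols were updated from RefSeq: 41097 named 1 gene, 1801 several and 11777 had no entry, and the last 2 kinds were left out. Each gene was represented by whichever of its probe sets had the highest mean on that scale, and 9888 genes whose mean reached the median gene's were kept. Signals of different probe sets are not comparable levels. Promoter sequences are from RefSeq, GRCh38.p14.

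Each group held 1 array, so no test was run. Each difference subtracts the log2 value of the array named last; called means 2-fold or more, or, for serum, both values outside the range of the other 5. The rule for named genes took the 5 members with the largest differences in each comparison, those past 2-fold, the members with the highest and lowest mean signal in each role and 7 best known members, and the 3 genes of each other list in the comparisons of control serum with untreated and of both sera; genes past 2-fold elsewhere were named after their values were seen. The members and lists were chosen with earlier results of these data known. The steps recovered known differences in simulated data that were larger than those reported for any member. Smaller ones were not simulated. Python 3.11.15, numpy 2.4.6, pandas 2.3.3, scipy 1.17.1 and statsmodels 0.14.6 were used. Alternatives covered array scaling, floor, filter, probe set choice, threshold, reference and left-out arrays. The number of arrays limits the precision.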

Additional observations from a re-analysis of the deposited data

How the results depend on the processing

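Over 8 comparisons and the serum contrast, 193 of 205 alternative values of the members' medians and counts stayed within 0.1 (log2) of the median or 1.5 times the count. Leaving out the filter or the floor, or a floor at the 40th percentile, left the members' medians unchanged, since all members lay above them. Counts of 0 at 2-fold could only stay 0 at 3-fold. The 0.1 exceeded most of the medians. The catechin median, at -0.019 with the other 3 compound arrays as reference, still counted as within it. The share therefore says little about the sign of small medians. The members' medians moved by more than 0.1 with centring on array medians, to 0.26 for control serum and 0.22 for pycnogenol-positive serum against untreated and 0.14 for serum against the other arrays, and for epicatechin with the other 3 compound arrays as reference, to -0.036. Centring also gave 15 members with both serum values above and 0 below, beside 26.4% and 6.12% of all genes compared (13.5% and 16.1% as deposited). The count below was 3 with the mean of all probe sets (7.14%, background 14.5%). Without _x_at and _s_at probe sets, 31 members were left above the filter, which was computed anew in that setting. The count above was 4 (12.9%, background 12.0%), and 1 member passed 2-fold with control serum (KIF23 at -1.12) and with pycnogenol-positive serum (ASPM at -1.02) against untreated. The KIF23 probe set read there had a mean signal of 239, below the filter of 269 used elsewhere. So did that of CENPF, 1 of the 4 above, at 192. At 1.5-fold, 1 member passed in the serum pair (PLK1) and 1 for pycnogenol-positive serum against untreated (AURKA). Leaving out each of the 5 arrays without test serum gave 7 to 10 members above and 5 to 7 below, while the background rose to between 14.5% and 16.6% above and between 17.7% and 19.2% below. AURKA turned to -0.26 when read from a probe set below the signal filter, and AURKB to -0.10 with the mean of its probe sets. That mean also turned ECT2 to -0.45 with epicatechin and -0.19 with taxifolin and BIRC5 to -0.028 with catechin, all against untreated, and AURKB to 0.12 for epicatechin against taxifolin. Of 561 values of single members and other lists, 28 moved by more than 0.25 (log2) for single genes or 0.1 for medians; the cause was not tested. No paired analysis was possible because each group held 1 array.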
